A study of Mus musculus with 3 samples.

Results

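Natural killer (NK) cells caught in division were followed in melanoma grafts of mice of 3 ages. A cell was counted as a dividing NK cell when it held at least 2 counts of Ncr1 and Klrb1c together, at most 1 count of Cd3d, Cd3e and Cd3g, fewer than 10 counts of C1qa, C1qb and C1qc, and at least 3 counts of Mki67, Top2a, Birc5 and Ube2c. Of 43730 cells, 72 met these limits: 35 of 14393 at 4 months, 21 of 14653 at 12 months and 16 of 14684 at 20 months. Ncr1 and Klrb1c encode surface receptors of NK cells, the Cd3 genes encode signalling chains of the T cell receptor, and the C1q genes encode complement proteins made by macrophages. Mki67 encodes the proliferation marker Ki-67, Top2a the topoisomerase that untangles replicated chromosomes, Birc5 the survivin subunit of the chromosomal passenger complex, and Ube2c a ubiquitin-conjugating enzyme of the anaphase-promoting complex. Cells that met the NK limits but held at most 2 counts of the division genes are called other NK cells, and there were 1966 of them.

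NK cells are lymphocytes that kill stressed, infected or transformed cells without a rearranged antigen receptor, by releasing perforin and granzymes. Their response is set by the balance of activating receptors, which signal through adaptors such as DAP12 and the Fc receptor gamma chain, and inhibitory receptors such as those of the Ly49 family. Interleukin 2 and interleukin 15 drive their division, which passes through a phase of DNA replication (S phase) and a phase of chromosome condensation and separation (G2 and mitosis, G2/M).

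Each mouse received 500000 cells of YUMM1.7, a mouse melanoma line, under the skin. At each of 4, 12 and 20 months of age, 7 mice were used, and tumours were taken 18 days after injection. Live cells positive for CD45, a surface protein of leukocytes, were sorted and made into 1 PIP-seq 3′ library per age, in which cells are barcoded in droplets. The labels give neither the strain nor the sex of the mice and leave unsaid if the 7 tumours of an age went into 1 pool, so no p-value is given between ages, and with 1 library per age an age and its library cannot be told apart. Levels are given in CPM (counts scaled to a common total over the summed cells), and intervals are 95% intervals that cover counting error only.

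The 3 libraries held 110371225 to 127850782 counts, and no deposited cell held fewer than 3555. The dividing NK cells together held 326210 counts at 4 months, 176144 at 12 months and 115443 at 20 months. Their median was 8342, 7189 and 6388.5 counts per cell at the 3 ages, against 6422.5, 6079 and 5858.5 in other NK cells. Between 2 and 4 cell barcodes were shared by any pair of libraries, and none of them was a dividing NK cell. Scrublet, set to mark the top 6% of each library as possible doublets, marked 1 of the 72 cells, at 12 months.

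The rule set the levels of its own genes, which are given as a description only. The dividing NK cells held a median of 8, 6 and 7 counts of Ncr1 and Klrb1c at 4, 12 and 20 months, and other NK cells held 9, 8 and 7. In 62 of the 72 cells (86.1%) the sum was 4 or more, a level that 2.88%, 5.15% and 4.34% of cells with 10 or more C1q counts (C1q-high cells, which should lack both genes) also reached. At the limit of 2 counts, 18.9%, 20.2% and 11.6% of C1q-high cells would have passed. The division genes stood exactly at 3 counts in 8, 5 and 3 of the cells, and 52, 18 and 21 NK-gated cells stood just outside, at 2. The highest sums of the division genes were 47, 31 and 34. Top2a was detected in 27 of 35, 19 of 21 and 13 of 16 cells, Birc5 in 20, 18 and 14, Mki67 in 17, 15 and 7, and Ube2c in 16, 10 and 9.

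NK genes outside the rule were present in dividing NK cells at every age. The 5 given here stood mostly close to their level in other NK cells. Of further such genes, Tyrobp, Fcer1g and Prf1 were called lower, and Gzma and Tbx21 were not called. All of these are given below. Klrk1, which encodes the activating receptor NKG2D, stood at 1312, 1152 and 1299 CPM at 4, 12 and 20 months, against 1274, 1323 and 1234 CPM in other NK cells. Klrd1 (CD94, the partner of the NKG2 receptors) stood at 1192, 988 and 1126 CPM against 1190, 1140 and 1227 CPM. Klre1, another lectin-like receptor gene, stood at 877, 664 and 849 CPM against 743, 710 and 677 CPM. The kinase gene Txk stood at 276, 216 and 269 CPM against 256, 244 and 254 CPM. Eomes, a transcription factor gene of NK cells, stood at 126, 51.1 and 113 CPM against 98.8, 108 and 100.0 CPM. In dividing T cells, defined by at least 2 Cd3 counts and no count of Ncr1 or Klrb1c, Klre1 stood at 157 to 214 CPM and Txk at 57.2 to 65.5 CPM, below every library of the dividing NK cells. Lower NK genes in T cells follow in part from these limits, so the values are a description only. T cell levels of Klrk1, Klrd1 and Eomes are not given here. None of these 5 genes passed the test of dividing against other NK cells (edgeR's quasi-likelihood test, adjusted p = 0.28 for Klrk1, 0.12 for Klrd1, 0.98 for Klre1, 0.76 for Txk and 0.90 for Eomes).

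RNA of other cell types was also counted in these cells. At least 1 count of the T cell receptor genes Trac, Trbc1 or Trbc2 was found in all but 1 of the 72. The 15 T cell markers summed to 1407, 1612 and 1455 CPM in dividing NK cells, 916, 1679 and 1518 CPM in C1q-high cells and 6864, 6597 and 6542 CPM in dividing T cells. C1q counts reached 8, 7 and 6 in single cells. The 16 macrophage and monocyte markers summed to 8942, 8084 and 8662 CPM, against 13230, 11220 and 9786 CPM in other NK cells and 41740 to 46440 CPM in C1q-high cells; Mrc1 was at 0. B cell markers summed to 204 to 225 CPM with Cd79b and Ms4a1 at 0, markers of innate lymphoid cells of the ILC2 and ILC3 types to 52.1 to 69.3 CPM with Il17a, Il5 and Il13 at 0, and 9 of 10 melanoma genes were at 0.

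In each library 1 dividing NK cell stood apart by its myeloid genes. These 3 cells had 4.16%, 2.62% and 4.78% of their counts in the macrophage and monocyte list at 4, 12 and 20 months, while the others stayed at or below 1.51%, 1.36% and 0.89%. They carried 341, 152 and 143 counts of Cd74 and 155, 39 and 78 of H2-Ab1, genes of antigen presentation, and only 3, 2 and 2 counts of Ncr1 and Klrb1c. The cell at 12 months also held 53 counts of Il12b and 35 of Ccl17, a cytokine and a chemokine of dendritic cells and macrophages. Among other NK cells, 173 (14.6%), 33 (9.27%) and 29 (6.78%) exceeded 2% at the 3 ages. Results below are therefore also given for NK- and T-gated cells with at most 2% of their counts in that list, called the myeloid limit, an alternative chosen after seeing the data.

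Dividing cells made up a few percent of the NK cells at every age. The share was 2.88% (2.01 to 3.98) of 1217 NK-gated cells at 4 months, 5.57% (3.48 to 8.39) of 377 at 12 months and 3.604% (2.07 to 5.79) of 444 at 20 months, as exact binomial intervals. The 3 intervals overlapped. The share of dividing cells among T cells was 5.18%, 9.10% and 9.55%. NK cells had the lower share in 3 of 3 libraries (NK minus T cells −3.93 percentage points, SD 1.86, n = 3), for which the exact two-sided paired permutation test gave p = 0.25, the smallest value that 3 libraries allow. With every cell thinned to 3500 counts the NK shares were 2.28%, 3.69% and 4.34% and the T cell shares 4.86%, 7.77% and 8.53%, and the middle and oldest age changed order. With the myeloid limit applied, the NK shares were 3.26%, 5.83% and 3.62% and the T cell shares 6.497%, 11.07% and 11.59%.

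The limit on Cd3 counts bore on these shares. C1q-high cells, which should lack Cd3, held a mean of 3.52, 9.08 and 7.28 Cd3 counts at 4, 12 and 20 months. Cells that met the other NK limits but held 2 to 4 Cd3 counts had Trac at 116, 171 and 129 CPM, against 122, 152 and 134 CPM in the NK-gated cells, while those with 10 or more stood at 1302, 1066 and 980 CPM. They were also deeper, with medians of 8056, 7422 and 6912 counts. With up to 4 Cd3 counts allowed, 113, 77 and 72 cells were dividing NK cells, or 4.34%, 4.83% and 5.56%. With up to 9 allowed, 151, 144 and 128 cells were, or 5.11%, 6.07% and 7.68%, and the NK share minus the T cell share was −1.65 percentage points (SD 1.49, n = 3). Cells with 5 to 9 Cd3 counts had Trac at 176.5, 186.0 and 194.9 CPM. Their Ncr1 stood at 498, 600 and 564 CPM, against 697, 725 and 687 CPM in the NK-gated cells, and 10.9%, 8.65% and 15.0% of them were dividing. How many of them were T cells was not tested. These wider limits were added after seeing the data. Fewer dividing cells and less division RNA per cell cannot be told apart by a limit on counts.

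**Figure D1:**
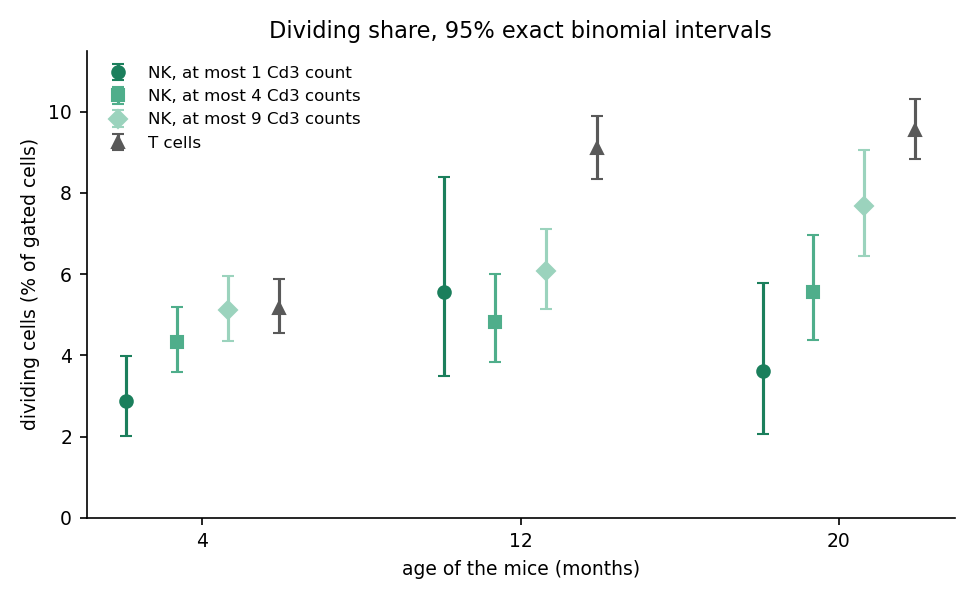
Share of dividing cells (y axis, % of gated cells) by age of the mice (x axis, months) for NK cells under 3 limits on Cd3 counts and for T cells; points are the share in 1 library and bars the 95% exact binomial interval. The NK share with at most 1 Cd3 count lies between 2.88% and 5.57%, and the T cell share lies above it in each library.

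Genes of the cell cycle follow from the rule and were not tested as findings, but they show how far the 4 division genes marked a whole programme. Per 10000 counts, the 42 S phase and 50 G2/M genes together came to a median of 71.9, 124 and 106 in the dividing NK cells at 4, 12 and 20 months, against 12.8, 14.5 and 12.8 in other NK cells. Of the dividing NK cells, 28 of 35, 16 of 21 and 14 of 16 lay above the 95th percentile of other NK cells, and the lowest lay at 7.49, 6.25 and 17.8. Some cells near the limit therefore carried no more cycle RNA than other NK cells. Stmn1, which encodes a microtubule-destabilising protein, stood at 843, 1283 and 936 CPM against 53.5, 88.0 and 59.6 CPM. Hmgb2, a chromatin protein gene, stood at 2103, 2470 and 3309 CPM against 415, 447 and 423 CPM. Pcna, the sliding clamp of the replication fork, stood at 408, 698 and 563 CPM against 148, 138 and 160 CPM. Rrm2, a subunit of ribonucleotide reductase, stood at 85.8, 284 and 165 CPM against 8.85, 10.6 and 8.73 CPM. Ccnb2, a mitotic cyclin gene, stood at 184, 159 and 234 CPM against 6.64, 11.4 and 9.82 CPM. Each of these 5 genes was higher in dividing NK cells in every library, which follows from the division limit.

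Both phases of the cycle were represented. More S phase than G2/M counts were found in 21 of 35 cells at 4 months (60.0%, 42.1 to 76.1), 11 of 21 at 12 months (52.4%, 29.8 to 74.3) and 7 of 16 at 20 months (43.8%, 19.8 to 70.1). Dividing T cells gave 51.1%, 44.5% and 43.8%. Cells rich in S phase genes and poor in G2/M genes, and the reverse, were present at all 3 ages. The S phase list summed to 3581, 4729 and 3733 CPM in dividing NK cells and to 4490, 4328 and 4419 CPM in dividing T cells. The G2/M list summed to 3099, 5178 and 5388 CPM and to 4940, 5661 and 5909 CPM. Dividing NK cells had the lower G2/M sum in each library, and the lower S phase sum at 4 and 20 months.

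**Figure D2:**
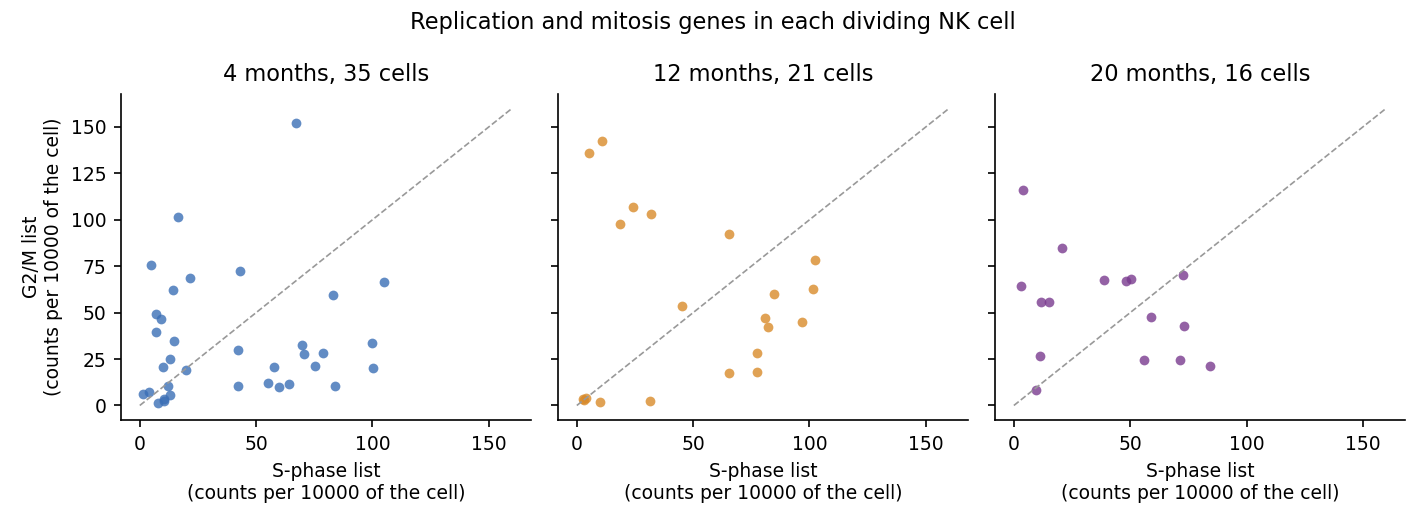
Counts of S phase genes (x axis) against counts of G2/M genes (y axis), both per 10000 counts of the cell, in each dividing NK cell; 1 panel per age, 1 point per cell, with a dashed line where the sums are equal. In each panel some points lie close to 1 of the axes, and at 4 months 21 of 35 points lie below the line.

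Both classes had passed the same limit on raw division counts, and cycle genes were tested between dividing NK and dividing T cells. The classes differed in median depth, at 8342, 7189 and 6388.5 counts per cell against 9283, 8574 and 8011.5 in dividing T cells. With unlike depths and dividing shares, the part of cells near the limit can differ as well. What this adds to the differences below was not tested. Over all 14196 genes, edgeR's quasi-likelihood test called 1.76% higher and 2.35% lower in dividing NK cells at an adjusted p under 0.05. Of the 120 cycle genes tested, 0 were higher and 12 lower. At an unadjusted p under 0.05, 1 of 42 S phase genes was higher and 9 lower, 0 of 50 G2/M genes were higher and 22 lower, and 1 of 28 chromatin and tubulin genes was higher and 13 lower. DESeq2 called 0 higher and 1, 3 and 4 lower in these lists. The 12 were the S phase genes Dut and Dnmt1, the mitosis genes Ccnb2, Aurkb, Plk1, Cks2 and Ncapg, and the chromatin and tubulin genes Hmgb2, Hmgn2, Tuba1c, Tubb4b and Hist1h2ap. Plk1, a kinase of mitotic entry, stood at 15.3, 39.7 and 17.3 CPM against 45.0, 73.6 and 62.5 CPM (log2 difference −1.44, adjusted p = 0.014). Aurkb, the kinase of the chromosomal passenger complex, stood at 39.9, 85.2 and 86.6 CPM against 104, 118 and 142 CPM (log2 difference −1.0, adjusted p = 0.017). Hmgb2 was at 2103 to 3309 CPM against 3396 to 3511 CPM (log2 difference −0.52, adjusted p = 0.0054). The median log2 difference was −0.22 over the S phase list and −0.46 over the G2/M list, against −0.13 over all genes. With the myeloid limit 22 cycle genes were lower, with up to 9 Cd3 counts 46, without the library at 4 months 3, and without that at 20 months 6.

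The promoters of these genes differed by list in the motifs they held. RefSeq promoter windows on GRCm38.p6 (250 bases before to 50 after the start, 300 bases) were matched for 43 of 50 G2/M genes, 32 of 42 S phase genes and 24 of 28 chromatin and tubulin genes, out of 27025 windows in all, and both strands were searched. The cell cycle homology region (CHR), TTTGAA, was present in 33 of 43 G2/M windows (76.7%), 4 of 32 S phase windows (12.5%) and 18.1% of all windows. The CCAAT box was present in 79.1%, 59.4% and 37.9%, and both motifs together in 67.4%, 9.38% and 7.12%. The chromatin and tubulin windows held CHR in 12 of 24, CCAAT in 21 of 24, both in 12 of 24 and the E2F motif given next in 3 of 24. The E2F motif TTCCCGC was present in 1 of 43 G2/M windows (2.33%), 14 of 32 S phase windows (43.8%) and 4.66% of all. Windows of 4 genes are shown, chosen after their matches were seen: the rule genes Top2a and Ube2c, Ccnb2 of the G2/M list, and Pclaf, which is in none of the lists and is described below. Not every gene holds the motifs of its group: the window of the rule gene Birc5 held none of the 3, and those of the S phase genes Pcna and Rrm2 held no E2F match. Capitals mark CHR, CCAAT and E2F matches on either strand.
Top2a: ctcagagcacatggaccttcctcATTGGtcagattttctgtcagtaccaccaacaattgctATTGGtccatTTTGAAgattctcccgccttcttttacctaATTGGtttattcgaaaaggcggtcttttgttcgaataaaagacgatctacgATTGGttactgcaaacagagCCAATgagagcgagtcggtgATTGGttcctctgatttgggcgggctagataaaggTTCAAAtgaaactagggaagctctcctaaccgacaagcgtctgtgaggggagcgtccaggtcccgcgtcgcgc
Ube2c: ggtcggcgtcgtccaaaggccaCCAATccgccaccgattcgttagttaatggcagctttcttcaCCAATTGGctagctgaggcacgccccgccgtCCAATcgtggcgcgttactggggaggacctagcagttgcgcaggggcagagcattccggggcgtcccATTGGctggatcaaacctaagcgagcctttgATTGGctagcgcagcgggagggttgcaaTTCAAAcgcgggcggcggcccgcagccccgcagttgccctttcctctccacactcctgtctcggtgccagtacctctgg
Ccnb2: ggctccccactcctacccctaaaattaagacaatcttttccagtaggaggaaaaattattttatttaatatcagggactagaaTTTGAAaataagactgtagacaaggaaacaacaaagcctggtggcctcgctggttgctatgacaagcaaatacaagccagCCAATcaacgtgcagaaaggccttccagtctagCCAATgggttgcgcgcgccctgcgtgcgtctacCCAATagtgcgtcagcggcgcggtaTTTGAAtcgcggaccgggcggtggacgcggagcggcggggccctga
Pclaf: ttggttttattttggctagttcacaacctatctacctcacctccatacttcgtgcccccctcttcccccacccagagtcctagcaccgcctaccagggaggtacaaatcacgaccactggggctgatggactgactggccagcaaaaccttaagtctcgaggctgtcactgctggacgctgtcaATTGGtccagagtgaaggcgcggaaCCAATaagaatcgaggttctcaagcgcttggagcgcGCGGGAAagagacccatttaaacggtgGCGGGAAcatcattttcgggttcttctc
These windows lie at chr11:99024140-99024439, minus strand (Top2a), chr2:164769679-164769978, plus strand (Ube2c), chr9:70421505-70421804, minus strand (Ccnb2) and chr9:65890073-65890372, plus strand (Pclaf), and each is written 5′ to 3′ on the strand of its gene. The first 3 hold 2, 1 and 2 CHR matches and no E2F match, and the Pclaf window holds 2 E2F matches and no CHR match. A match describes the letters only; no binding was measured.

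Dividing and other NK cells of the same library were then compared across all genes outside the rule, with counts summed per library and class, so that the 3 libraries were the replicates. Of 14196 genes tested, edgeR's quasi-likelihood test with Benjamini-Hochberg adjustment called 448 higher (3.16%) and 349 lower (2.46%) in dividing NK cells, at an adjusted p under 0.05. The median gene stood at −0.14 (log2), and differences are read against that shift. Of the 448 higher genes, 111 belonged to the 3 cell cycle lists (38 of 42 S phase, 49 of 50 G2/M and 24 of 28 chromatin and tubulin genes tested), which follow from the rule. DESeq2 called 594 higher and 309 lower. With the myeloid limit 411 were higher and 442 lower; 392 and 231 genes were called in both fits, so 66.2% of the lower genes kept their call. Without the library at 12 months 290 were higher and 117 lower, and without that at 20 months 162 were lower.

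Outside those lists, the 12 largest rises were mostly further genes of division, which follow from the rule in the same way and are given as a description. Pclaf, whose product binds PCNA at the replication fork, stood at 343, 630 and 502 CPM at 4, 12 and 20 months, against 21.5, 28.8 and 30.5 CPM in other NK cells (log2 fold change 4.03, SD 0.26 over the 3 within-library ratios). Pimreg, a regulator of the mitotic checkpoint, stood at 39.9, 68.1 and 78.0 CPM against 1.35, 2.12 and 4.73 CPM (log2 fold change 4.46). The log2 fold change was 4.26 for Cep55, needed for the final separation of daughter cells, 4.13 for Knl1, a kinetochore scaffold, and 3.89 for Shcbp1. Of the remaining 7 of the 12 largest rises, 6 were histone H2A genes or a pseudogene of that family (H2ac5-ps, Hist1h2an, Hist1h2ao, H2ac4, H2ac12 and H2ac11, log2 3.71 to 3.94), whose near-identical copies the counting could split, so single copies are uncertain. The last, Gm15477, an antisense RNA gene at chr5:67847065-67909013 (GRCm38), had 97.6% of its counts in dividing NK cells from 1 cell, and lost its call without the library at 4 months (log2 fold change 1.76, adjusted p = 0.62).

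**Figure D3:**
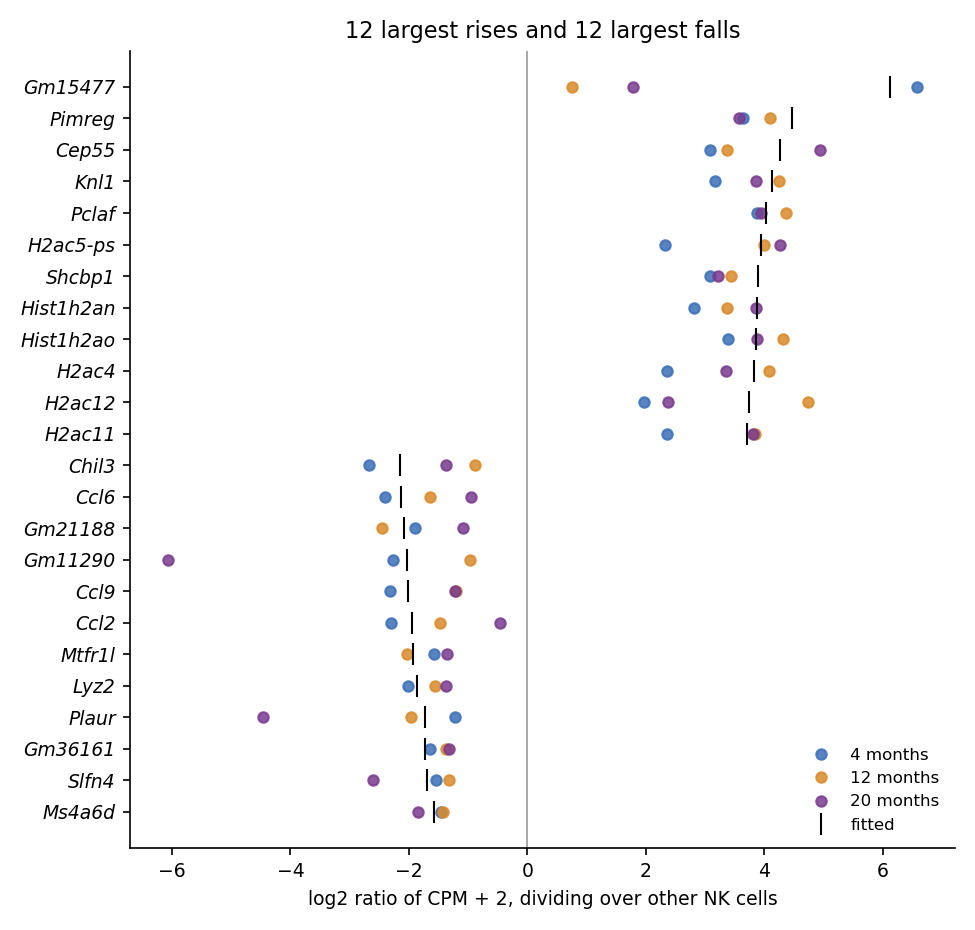
Log2 ratio of CPM + 2 between dividing and other NK cells (x axis) for the 12 largest rises and 12 largest falls outside the cell cycle lists (y axis), with 1 coloured point per library and a black tick for the fitted value. The points of the 11 rises below Gm15477 all lie at or above 1.96, and those of Gm15477 spread from 0.76 at 12 months to 6.58 at 4 months.

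Among the 12 largest falls were several genes that myeloid cells make. Lyz2, the lysozyme gene of macrophages and monocytes, stood at 705, 585 and 606 CPM in dividing NK cells and 2858, 1731 and 1568 CPM in other NK cells (log2 fold change −1.86, SD 0.33, adjusted p = 1.62e-08), and at 3166, 3234 and 3614 CPM in C1q-high cells. The chemokine genes Ccl2, Ccl6 and Ccl9 and the monocyte genes Chil3, Plaur, Slfn4 and Ms4a6d also fell, by 1.58 to 2.15 on the log2 scale. Gm21188 and Gm36161 fell by 2.08 and 1.72 on the log2 scale. Of the 12 largest falls, 9 were higher in C1q-high than in other NK cells in all 3 libraries, as were 44.1% of all 349 lower genes, 60.5% of the higher genes and 39.4% of all genes tested. Under the myeloid limit only Gm11290 (log2 fold change −2.21, adjusted p = 0.0053) and Mtfr1l (−2.11, adjusted p = 3.82e-04) kept their call, and Lyz2 stood at −0.20 (adjusted p = 0.27). Lyz2 is itself in the list that sets this limit, so its smaller difference there follows in part from how cells were left out. Gm11290, a non-coding RNA gene, was at 21.5, 79.5 and 0 CPM against 111, 157 and 132 CPM. Mtfr1l, a nuclear gene of a mitochondrial protein, was at 15.3, 11.4 and 17.3 CPM against 49.9, 52.9 and 47.6 CPM, on 5, 2 and 2 counts. Chil3, Ccl2, Gm11290 and Gm36161 lost their call without the library at 4 months (adjusted p = 0.23, 0.11, 0.085 and 0.064).

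Genes of killing stayed high in dividing NK cells, but several were lower than in other NK cells. Of 23 such genes tested, 1 rose and 5 fell (median log2 fold change −0.34), against 3.16% and 2.46% of all genes. Nkg7, a granule membrane protein gene at chr7:43437073-43438249, stood at 2364, 3071 and 2244 CPM against 3389, 3697 and 3407 CPM (log2 fold change −0.61, SD 0.17, adjusted p = 1.83e-04). Gzmb, the granzyme B gene at chr14:56258838-56262260, stood at 3519, 3077 and 1966 CPM against 4238, 3592 and 2971 CPM (log2 fold change −0.49, SD 0.20, adjusted p = 0.0044). Prf1, the perforin gene, stood at 297, 363 and 199 CPM against 367, 402 and 344 CPM (log2 fold change −0.48, adjusted p = 0.029). Each of these 3 was lower in all 3 libraries. Prf1 lost its call when any 1 library was left out (adjusted p = 0.077, 0.073 and 0.17 without 4, 12 and 20 months). Srgn, the proteoglycan that packs granules, and Ctsc, the protease that activates granzymes, fell by 0.41 and 0.61 on the log2 scale, but Ctsc, at 1465, 1195 and 1287 CPM in C1q-high cells, stood at −0.01 (adjusted p = 1.0) under the myeloid limit. Srgn lost its call without the library at 12 months (adjusted p = 0.084) or at 20 months (0.080), and Ctsc without that at 4 months (0.20) or at 12 months (0.21). Under the myeloid limit Gzmb (−0.65), Prf1 (−0.62) and Nkg7 (−0.77) fell further, and Serpinb6b, Ctsw and Fasl also passed the test.

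Single granzymes varied widely between cells. Gzma, the granzyme A gene, stood at 2419, 4723 and 1507 CPM against 3763, 2609 and 2018 CPM (log2 fold change −0.15, adjusted p = 0.82), higher in dividing NK cells only at 12 months, and was called lower without that library (−0.75, adjusted p = 0.039). Gzmc stood at 2238, 1936 and 164.6 CPM against 618, 774 and 818 CPM (log2 fold change 0.80, adjusted p = 0.22), higher at 4 and 12 months and lower at 20 months. Without the library at 20 months Gzmc was called higher (1.47, adjusted p = 2.45e-05). It was detected in 24 of 35, 14 of 21 and 6 of 16 cells, and 1 cell held 27.4%, 51.6% and 63.2% of the Gzmc counts. The rise of Gzmd (log2 fold change 2.32, adjusted p = 0.0029) rested on 1 cell per library, which held 97.3%, 100.0% and 100.0% of 37, 4 and 34 counts, and was lost without the library at 4 months (adjusted p = 0.074).

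**Figure D4:**
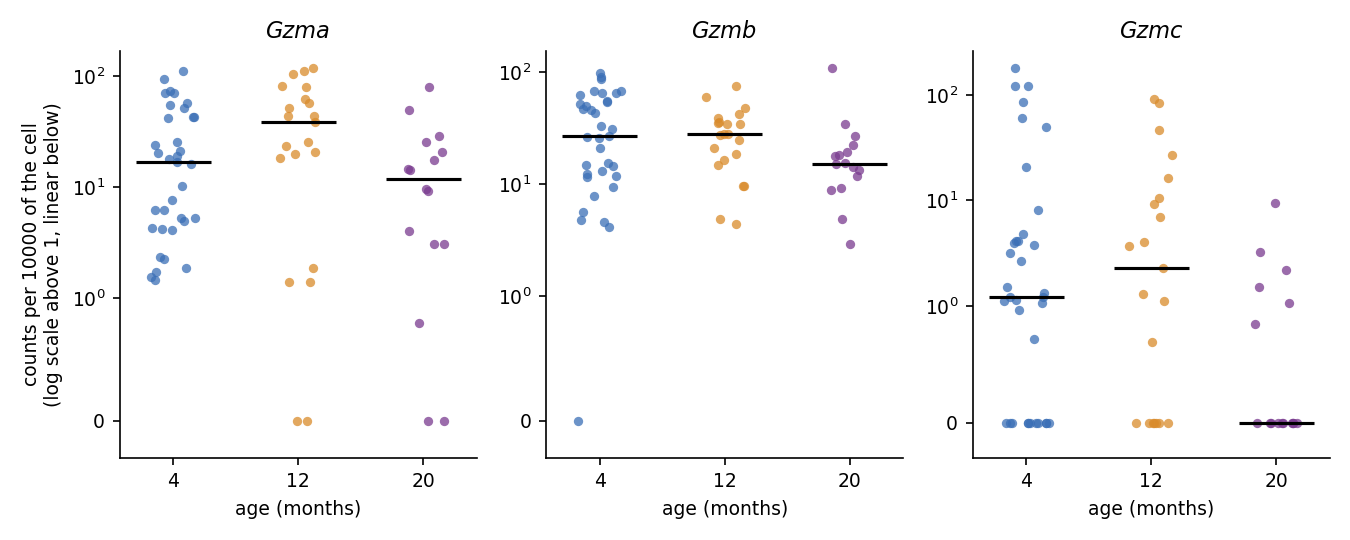
Counts of Gzma, Gzmb and Gzmc per 10000 counts of the cell (y axis, log scale above 1 and linear below) in each dividing NK cell by age in months (x axis); 1 point per cell, with a line at the median. Nearly every cell carries Gzmb, while the Gzmc points spread from 0 to 179 at 4 months and 10 of 16 lie at 0 at 20 months.

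Among receptors of the Ly49 and lectin families, whose genes lie together in the NK gene complex of chromosome 6, only 1 passed the test. Over all genes 2.46% were called lower, and the median log2 fold change of these receptors lay below the −0.14 of all genes. Of 22 tested, 0 rose and 1 fell (median log2 fold change −0.31; at an unadjusted p under 0.05, 0 were higher and 7 lower). The 1 was Klra8, which encodes the activating receptor Ly49H, at chr6:130115226-130129898. Klra8 stood at 420, 483 and 502 CPM against 980, 952 and 749 CPM (log2 fold change −1.21, SD 0.33, adjusted p = 9.51e-04), and was lower in all 3 libraries. It was detected in 22 of 35 (62.9%), 12 of 21 (57.1%) and 7 of 16 dividing NK cells (43.8%), and in 64.6%, 62.6% and 53.3% of other NK cells. C1q-high cells, which should lack it, reached 43.1%, 35.5% and 21.7%, at medians of 8976, 10345 and 9252.5 counts. At 20 months the share in dividing NK cells had an interval of 19.8 to 70.1%, which covers that of C1q-high cells. Its nearly identical Ly49 relatives make the split of reads among them uncertain. Under the myeloid limit 7 of 21 fell, Klrk1 (−0.33) and Klrd1 (−0.44) among them.

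Adaptors of activating receptors were lower in dividing NK cells. Of 23 genes, 0 rose and 7 fell (median log2 fold change −0.40), against 3.16% and 2.46% of all genes. The list summed to 5802 to 6367 CPM in dividing and 8142 to 8762 CPM in other NK cells, and to 7186 to 8166 CPM in C1q-high cells. In T cells too the sum was lower in dividing (4376 to 4693 CPM) than in other cells (5414 to 6195 CPM). Tyrobp, which encodes the adaptor DAP12, stood at 1717, 1573 and 1412 CPM against 2769, 2522 and 2559 CPM (log2 fold change −0.90, SD 0.10, adjusted p = 2.36e-06). Fcer1g, the Fc receptor gamma chain, stood at 1447, 1204 and 1152 CPM against 2188, 2055 and 1872 CPM (−0.84, SD 0.09, adjusted p = 6.26e-06). Hcst, which encodes the adaptor DAP10 used by NKG2D, stood at 304, 256 and 243 CPM against 434, 492 and 477 CPM (−0.88, SD 0.26, adjusted p = 2.06e-04). These 3 adaptors kept their call under all 14 alternatives. Tyrobp and Fcer1g are set against T cells below. The receptor genes Fcgr3, Cd244a, Slamf7 and Cd2 fell as well, by 0.47 to 1.01 on the log2 scale; Fcgr3, at 586 to 711 CPM in C1q-high cells and 140 to 195 CPM in other NK cells, stood at −0.41 (adjusted p = 0.21) under the myeloid limit and lost its call without the library at 4 months (adjusted p = 0.085). Each of the other 3 lost its call without the library at 12 months (adjusted p = 0.11 to 0.22) and without that at 20 months (0.058 to 0.15), and Cd244a also without that at 4 months (0.083).

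Cytokine receptors and secreted factors followed, to be read against 3.16% of all genes called higher and 2.46% lower. Of 30 genes of interleukin 2, 12, 15 and 18 signalling, 0 rose and 4 fell (median −0.31): Il2rb and Il2rg, the receptor chains shared by interleukins 2 and 15, the kinase gene Pim2 and the survival gene Mcl1. Il2rb stood at 769, 738 and 598 CPM against 867, 876 and 834 CPM (log2 fold change −0.43, SD 0.16, adjusted p = 0.011), and lost its call without the library at 12 months (adjusted p = 0.093) or at 20 months (0.12). Without the library at 12 months Il2rg (adjusted p = 0.055) and Pim2 (0.063) lost theirs, and without that at 4 months Mcl1 did (0.19). Mcl1 stood at −0.62 (adjusted p = 0.15) under the myeloid limit. Of 18 cytokine and chemokine genes, 0 rose and 3 fell (median −0.63). Ccl5, a chemokine gene at chr11:83525778-83530518, stood at 435, 721 and 589 CPM against 1667, 1580 and 1204 CPM (log2 fold change −1.56, SD 0.50, adjusted p = 1.86e-05). The highest count of Ccl5 in a dividing NK cell was 18, 14 and 9, against 234, 396 and 119 in other NK cells. Ccl4 stood at 353, 653 and 147 CPM against 988, 771 and 591 CPM (−1.17, SD 0.90, adjusted p = 8.76e-04). Most C1q-high cells held both genes, Ccl5 in 95.4%, 98.9% and 98.6% of them and Ccl4 in 89.6%, 93.6% and 87.3%. Under the myeloid limit Ccl5 and Ccl4 were still called lower. What RNA of such cells adds to these falls was not tested further. The third, Ccl9, is among the myeloid genes above. Xcl1, a chemokine gene for dendritic cells, stood at 1836, 1516 and 1741 CPM against 2314, 2509 and 3064 CPM and did not pass (−0.82, adjusted p = 0.065), but passed without the library at 4 months (−1.0, adjusted p = 7.4e-04) and under the myeloid limit (−0.98, adjusted p = 0.017).

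**Figure D5:**
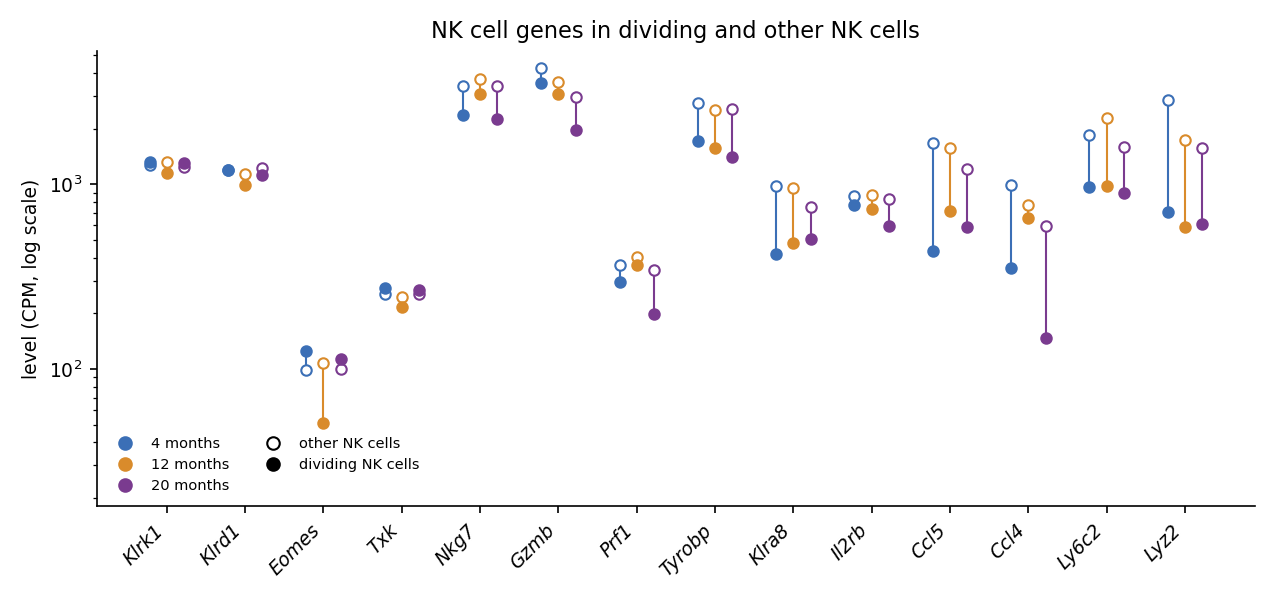
Levels (y axis, CPM on a log scale) of 14 genes (x axis) in dividing NK cells (filled points) and other NK cells (open points), joined by a line within each library and coloured by age. For Klrk1, Klrd1 and Txk the points nearly coincide, while for Tyrobp, Klra8, Ccl5, Ly6c2 and Lyz2 every filled point lies below its open one.

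Of 33 maturation genes tested, 0 rose and 2 fell (median −0.34), against 3.16% and 2.46% of all genes. Ly6c2, a surface marker gene of mature and interferon-exposed lymphocytes, stood at 972, 977 and 892 CPM against 1838, 2276 and 1601 CPM (log2 fold change −1.14, SD 0.20, adjusted p = 6.03e-06), and C1q-high cells had 3054 to 4708 CPM. It remained called under the myeloid limit (−0.94). Zeb2, a transcription factor gene of terminal NK maturation and of macrophages, fell by 1.15 on the log2 scale (adjusted p = 0.025), but stood at −0.21 (adjusted p = 0.77) under the myeloid limit, and C1q-high cells had it at 350 to 382 CPM. Its call was lost without the library at 4 months (adjusted p = 0.42) or at 20 months (0.070). Tbx21, another maturation factor gene, stood at 58.2, 96.5 and 69.3 CPM against 74.8, 96.5 and 84.0 CPM (adjusted p = 0.42).

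Of 29 genes listed as brakes of the cycle or genes of resting cells, 0 rose and 4 fell (median −0.11), against 3.16% and 2.46% of all genes. Btg2, an antiproliferative gene, stood at 595, 749 and 502 CPM against 821, 953 and 681 CPM (log2 fold change −0.58, SD 0.06, adjusted p = 4.45e-04). Ccnd2, a D-type cyclin gene that promotes entry into the cycle and so does not do what the list's name says, stood at 616, 738 and 528 CPM against 867, 926 and 814 CPM (−0.62, SD 0.15, adjusted p = 8.76e-04). Btg1 (−0.54) and Mxd4 (−1.15), an antagonist of Myc, fell as well. Btg1 lost its call without the library at 4 months (adjusted p = 0.14) or at 20 months (0.096), and Mxd4, on 4, 7 and 4 counts, without any 1 library (0.475, 0.079 and 0.088). Of 28 genes of nucleotide and one-carbon metabolism, 3 rose and 0 fell (median 0.42): Paics, Impdh2 and Dtymk, enzymes of purine and thymidine nucleotide synthesis, by 0.91, 0.92 and 0.81 on the log2 scale. These 3 kept their call under the myeloid limit (0.81, 0.77 and 0.71), and each lost it without the library at 4 months (adjusted p = 0.055, 0.13 and 0.071) or that at 12 months (0.098, 0.054 and 0.12). Of 20 glycolysis genes, 0 passed in either direction; at an unadjusted p under 0.05, 1 was higher and 2 lower, and DESeq2 called 1 higher.

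Interferon response genes were lower together with the myeloid genes. Of 28 tested, 0 rose and 7 fell (median −0.47), against 3.16% and 2.46% of all genes. Among the 7 were Isg15, Ifit3, Irf7, Rsad2, Ifitm3 and Ly6c2. The 28 genes summed to 9794, 8317 and 8454 CPM in dividing NK cells, 13390, 12190 and 9918 CPM in other NK cells and 19360 to 24630 CPM in C1q-high cells. With the myeloid limit 4 of 28 remained called, Ifit3, Irf7 and Ly6c2 among them, and Ifitm3 stood at −0.01 (adjusted p = 0.99). Without the library at 12 months Isg15, Ifit3, Irf7 and Rsad2 lost their call (adjusted p = 0.062 to 0.16). Of 23 early response genes, Fos, Junb and Zfp36 fell, by 0.47 to 0.75 on the log2 scale, and 0 rose. Fos lost its call without the library at 4 months (adjusted p = 0.089), Junb without that at 4 months (0.085) or 20 months (0.11), and Zfp36 without that at 12 months (0.14) or 20 months (0.070). Of 18 chemokine receptor and adhesion genes, 0 rose and 5 fell: Cxcr4, Ccr2, Selplg, Icam1 and Cd53. Of these, Ccr2 and Icam1 lost their call without the library at 12 months (adjusted p = 0.072 and 0.23) or at 20 months (0.12 and 0.13), and Selplg without that at 4 months (0.067) or at 12 months (0.11). Cd53, a tetraspanin gene of leukocytes, stood at 628, 579 and 546 CPM against 867, 828 and 738 CPM (log2 fold change −0.61, SD 0.04, adjusted p = 0.0013) and kept its call under all 14 alternatives. Cxcr4, on 5, 5 and 2 counts, lost its call without any 1 library (adjusted p = 0.12 to 0.39).

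Whether these differences were particular to NK cells was tested by setting them against the same difference in T cells. The T cell classes also held cells rich in myeloid genes. Of other T cells, 27.7%, 24.1% and 24.9% exceeded the myeloid limit at 4, 12 and 20 months, against 7.93%, 5.53% and 6.76% of dividing T cells. Only the fit under the myeloid limit leaves such cells out. Of 14196 genes, 23 (0.162%) were higher and 37 (0.261%) lower in the NK than in the T cell difference at an adjusted p under 0.05 (edgeR's quasi-likelihood test), and 536 and 1270 at an unadjusted p under 0.05. Of the 23 higher genes, 12 had over 50% of their counts in dividing NK cells from 1 cell. Among the lists, the lower genes included Nkg7 (difference of log2 fold changes −0.75, adjusted p = 0.028), Il2rb (−0.69, 0.028), Ccl4 (−1.35, 0.028), Cd160 (−1.11, 0.028), Tox (−0.93, 0.043) and Cd48 (−0.72, 0.028). The T cell gene Trbc2 (−0.85, 0.028) and the lymphocyte genes Cd2 (−0.66, 0.0498) and Sh2d1a (−0.70, 0.035) were also lower, and the myeloid genes Cst3 (1.03, 0.035) and Cd74 (0.58, 0.0496) were higher. Trbc2 stood at 325, 307 and 286 CPM in dividing and 363, 425 and 361 CPM in other NK cells, and at 1543 to 1997 CPM in dividing T cells. The part of these markers in the other differences was not tested. Cd160, an inhibitory receptor gene, stood at 169, 136 and 199 CPM in dividing and 213, 259 and 230 CPM in other NK cells, and at 161, 144 and 150 CPM in dividing T cells. Tox, a factor gene of lymphocyte development, was at 70.5, 62.5 and 78.0 CPM in dividing and 66.9, 65.2 and 63.3 CPM in other NK cells, while in T cells it was higher in dividing (128 to 156 CPM) than in other cells (68.9 to 81.0 CPM). Without the library at 12 months 13 genes were higher and 6 lower, without that at 20 months 8 and 2, and without that at 4 months 41 were higher. Under the myeloid limit 13 genes were higher and 21 lower. Of the 6 genes just given, Cd160 kept its call (−0.92, adjusted p = 0.042) and the rest gave adjusted p of 0.052 to 0.16. Without the library at 20 months all 6 lost their call (0.12 to 0.18), Cd160 at 0.142, and Tox lost it without any 1 library (0.145, 0.272 and 0.174). Fcer1g went from 0.57 (adjusted p = 0.042) to −0.60 (adjusted p = 0.042) under the myeloid limit. Fcer1g (0.12, 0.195 and 0.185) and Sh2d1a (0.118, 0.287 and 0.122) lost their call without any 1 library. Cd2, Cd74 and Trbc2 lost theirs without the library at 12 months (0.324, 0.28 and 0.222) or at 20 months (0.255, 0.247 and 0.155). Cst3 lost its call without that at 4 months (0.106) or at 12 months (0.265). Klra8 (−0.95, adjusted p = 0.15), Ccl5 (−0.72, adjusted p = 0.17) and Tyrobp (0.50, adjusted p = 0.066) did not pass this test.

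Across ages, a log2 ratio of CPM past 1 was reached at 12 against 4 months by 400 of 3787 genes upward (10.6%) and 239 downward (6.31%), and at 20 against 4 months by 384 of 3734 upward (10.3%) and 337 downward (9.03%). With up to 9 Cd3 counts allowed, and so 128 to 151 cells per library, these shares were 0.584%, 0.769%, 1.07% and 0.798%. In the G2/M list, 18 of 33 genes at 50 CPM or more were past that fold upward at 12 and 18 of 33 at 20 months, 0 were past it downward, and the median log2 ratios were 1.06 and 1.04, against 0.31 and 0.07 in other NK cells. G2/M genes follow from the division limit, and the 4 division genes of the rule themselves stood at 751, 1323 and 1473 CPM in these cells. The limit is on raw counts, and median depth was 8342, 7189 and 6388.5 counts per cell. Age and the working of the limit therefore cannot be told apart for these genes. With up to 9 Cd3 counts the summed G2/M level was 3753, 3657 and 4176 CPM. Interferon response genes were below their level at 4 months in 21 of 26 at 12 and 20 of 26 at 20 months (median log2 ratios −0.29 and −0.47), and the medians in other NK cells were −0.24 and −0.53. Over all genes compared in dividing NK cells the medians were 0.017 and 0.022. The list also fell in C1q-high cells, where it summed to 24630, 20200 and 19360 CPM at 4, 12 and 20 months. What RNA of such cells adds to the difference was not tested.

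Past the fold with the value at 12 months in between, 252 genes stood higher and 234 lower at 20 than at 4 months. A gene was named only where no single cell held over 10% of its counts in its highest library. For a rise that library is the one at 20 months, with 16 cells, and for a fall the one at 4 months, with 35, so the number of cells weighs on how many pass. In all 252 rises a single cell held more, 19 falls had no such cell, and these counts are not a comparison of rises with falls. Cd37, a tetraspanin gene of lymphocytes, stood at 208.5, 147.6 and 69.3 CPM on 68, 26 and 8 counts (log2 ratio of 20 to 4 months −1.59, interval −2.86 to −0.53), while other NK cells stood at 201, 202 and 192 CPM. Bzw2, a translation regulator gene, stood at 92.0, 28.4 and 8.66 CPM on 30, 5 and 1 counts (−3.41, interval −8.76 to −0.82). Tcof1 (−2.82), Grk2 (−1.77), Kdm5a (−1.44), Snapc5 (−1.41), Lsm1 (−1.41) and Cmss1 (−1.37) completed the 8 largest. The intervals of Kdm5a, Snapc5 and Lsm1 included 0. With up to 9 Cd3 counts all 8 ratios were negative and the largest in size was −0.70, of Kdm5a, Cd37 at −0.20 and Bzw2 at −0.25.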

How the data were processed

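Counts per gene and cell were deposited by the authors as 1 matrix per library, as whole-number counts without normalization. STAR 2.7.10a and genome build GRCm38 are named in the submitters' processing notes; whether counts are of reads or of molecules is not given in the sources used here. Groups came from the labels, and all deposited cells were used. Counts were summed per library and class (dividing NK, other NK, dividing T and other T cells, 12 sums) and fitted with edgeR 4.0.16 (R 4.3.3): quasi-likelihood test, TMM, library as a block, filterByExpr, Benjamini-Hochberg adjustment over all genes tested, and a threshold of 0.05. The 12 genes of the rule were left out of the tests, and the fits were checked on simulated data. Ratios within a library used CPM + 2. DESeq2 1.42.0, other limits, Scrublet (scanpy 1.11.5) and each library left out were alternatives.

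The cells and the gene lists (24 lists, 508 entries) were chosen with earlier results of these data known. Named genes were the 12 largest rises and falls past the threshold outside the cycle lists, moved the same way in all 3 libraries, with a mean of at least 50 CPM in the higher class, up to 5 genes per cycle list, the 6 largest in each direction for NK against T cells, and the 8 largest in each direction for age, with no cell above 10% of the counts. Other list genes are named by the count they belong to. Some list genes are not reported here by name. Coordinates are of GRCm38 (GENCODE M21), in which 54349 of 55401 identifiers were found. Libraries are the replicates and enter as a block, so p-values measure how class differences vary between 3 libraries of different age. That variation was estimated over all 12 sums, those of T cells included. The T cell sums hold 227 to 5606 cells, and the sums of dividing NK cells 16 to 35.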

Additional observations from a re-analysis of the deposited data

Results flagged for a closer look

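In 12 genes the difference between dividing and other cells was itself different in NK and T cells (edgeR's quasi-likelihood test, adjusted p under 0.05), and these were the largest by size in each direction. The difference of log2 fold changes was 7.11 for Gm15477, 6.80 for Stox2, 6.42 for Slc22a23, 5.04 for Ccl17, 4.90 for Apbb2 and 4.88 for Il12b. In each of these 6, 96.2% to 98.9% of the counts in dividing NK cells came from 1 cell. The cell that held nearly all counts of Il12b and Ccl17, at 12 months, is the one that also carried 152 counts of Cd74. In the other direction the difference was −2.33 for Gm11290, −1.38 for Sla2, −1.35 for Ccl4, −1.33 for Kpna2, −1.27 for Gimap8 and −1.15 for Alad. Kpna2, Gimap8 and Alad lost their call whichever library was left out (adjusted p = 0.064 to 0.25). Gm11290 and Ccl4 lost it without the library at 4 months (0.085 and 0.097) or at 20 months (0.14 and 0.12), and Sla2 without that at 12 months (0.27) or at 20 months (0.22). Of the 6 higher genes, Gm15477 and Apbb2 lost it without the library at 4 months (0.51 and 0.75), Slc22a23, Ccl17 and Il12b without that at 12 months (0.83, 0.92 and 0.71), and Gm15477, Stox2, Slc22a23, Apbb2 and Il12b without that at 20 months (0.070 to 0.54).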

How the results depend on the processing

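Counts of called genes depended on the limits more than the direction of single genes did. The dividing share at 4, 12 and 20 months was 7.15%, 10.3% and 8.33% with a division limit of 2. At 4 months it was 1.56% with a limit of 5, 1.21% in cells with no C1q count, and 4.34% and 5.11% with up to 4 and 9 Cd3 counts; at 20 months it was 9.52% with no C1q count and 7.68% with up to 9 Cd3 counts. Against other NK cells, the genes higher numbered 197 with no Trac count, 1101 and 1479 with up to 4 and 9 Cd3 counts, and 290 to 342 without 1 library. The genes lower numbered 651 with no filter on low counts, 206 with NK cells only, 212 with no library term, 1032 and 1290 with up to 4 and 9 Cd3 counts, and 117 to 314 without 1 library. For the NK against T cell difference, the genes higher numbered 83 with DESeq2, 159 with no filter, 35 with division limits of 5 and 0, 15 at 5000 to 15000 counts per cell, 15 with no Trac count, 77 with up to 9 Cd3 counts, 13 under the myeloid limit, and 8 to 41 without 1 library. The genes lower numbered 69, 127, 346 with no Trac count, 107 and 216 with up to 4 and 9 Cd3 counts, 21 under the myeloid limit, and 2 to 55 without 1 library. With no library term edgeR called 0 in either direction, with 499 higher and 1078 lower at an unadjusted p under 0.05, and DESeq2 was run only with that term. Of cycle genes against dividing T cells, 1 was higher with up to 9 Cd3 counts, and those lower numbered 23 with no filter, 19 with no Trac count, 31 and 46 with up to 4 and 9 Cd3 counts, 22 under the myeloid limit, and 3 to 9 without 1 library. Genes higher at 12 months were 16.5% with a division limit of 5, 1.35% and 0.584% with up to 4 and 9 Cd3 counts, and at 20 months 1.94% and 1.07%. Genes lower at 12 months were 10.1% at 20 CPM or more, 1.02% and 0.769%, and at 20 months 1.02% and 0.798%. Direction turned in the NK against T cell difference for Slc22a23 (−6.04 to 7.84 without 1 library), Ccl17 (−7.34 with no Trac count, −0.44 under the myeloid limit), Apbb2 (−8.92 with no Trac count, −6.96 to 5.60 without 1 library), Il12b (−1.49 under the myeloid limit, −7.09 to 5.35 without 1 library), Gzmd (−1.05 with no Trac count), and Fcer1g (−0.60), Cst3 (−0.13) and Cd74 (−0.13) under the myeloid limit. Against other NK cells it turned for Gzmd (−2.11 with no Trac count, −0.055 with up to 9 Cd3 counts). Beyond the fewer or more cells and genes each setting leaves, the cause was not tested. The limits on Cd3 and Trac counts and the myeloid limit were chosen after seeing the data. The setting with no count of any T cell receptor gene left 1 dividing NK cell and was not run. Classes were paired within a library throughout, and ages could not be paired.

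With 16 to 35 cells per library, an age difference in a single gene below the width of its counting interval was not detectable at this depth, and genes whose counts came mostly from 1 cell cannot be read as properties of the class.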
